A study of Allium sativum with 84 samples.

Results

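The genes described here were the 200 always expressed genes whose transcript abundance differed most among garlic accessions. They were chosen by their measured values. A gene had to reach at least 1 FPKM (fragments scaled to transcript length and to library size) in all 84 accessions, which held for 14861 of 57561 annotated genes. The 100 genes of highest median FPKM and the genes that the study names were left out, which left 14761, and the 200 with the largest standard deviation (SD) of log2(FPKM + 1) over the 84 accessions were taken. Because the spread between accessions chose these genes, their spread, their distributions and their co-variation are given as descriptions with no test.

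Garlic (Allium sativum) RNA from bulbs under enlarging growth was sequenced with 1 library for each accession. Per the labels, all accessions were grown at the same farm in Shandong from autumn to the following spring, and no treatment is named. The study's methods state this for fewer accessions than the table holds, and bulbs collected in the same month need not be at the same stage. The labels group the accessions by collection site: 68 came from China, with 20 named sites and 6 accessions without a site, and 16 came from 11 other countries. Only Shandong (15), Xinjiang (9), Shanxi (6), Canada (5), Henan (4) and Hebei (4) had at least 4 accessions. Replicates within a site are separate accessions, so a p-value sets a difference against the spread between accessions. With 1 library for each accession, that spread also includes differences between libraries. Site names are spelt as in the labels (Amrica, Eygpt, Yunan, Xiangjiang), and the replicate numbers only name accessions. The labels and the study's methods do not give the same number of bulbs behind a library. A collection site does not give the genetic group of an accession.

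A garlic bulb consists of cloves, which are swollen buds that store carbohydrate, mainly fructans, and protein for the next season. Garlic is propagated from cloves rather than from seed, so an accession is in effect a clone, and its plants share their genotype. Transcript abundance in such clones can differ through sequence differences near a gene, through differences in other genes that act on it, and through the stage that each bulb has reached when it is collected. In bulk tissue, more cells that transcribe a gene and more RNA per cell cannot be told apart. The expression table gives gene IDs without names or roles, so the genes are called by ID, no role is stated for any of them, and the bulb label was not checked against marker genes. In an ID such as Asa8G04013.1, the number after Asa is the chromosome, and 0 stands for sequence outside the 8 chromosomes.

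The sequencing depth of the libraries, read from the steps between low FPKM values, differed by up to 2.29 times. The number of reads behind each of the 200 genes could be recovered, with a median of 495 reads in a library of middle level and a median of 24 in the library with the fewest. The fewest reads were 4, for Asa6G05096.1 and Asa8G04784.1, and 33 genes had under 10 reads in some library. No gene followed the relative depth closely, with Pearson's r from -0.36 to 0.34 over the 84 accessions. The deposited columns fell into 3 blocks (columns 1 to 7, 8 to 23 and 24 to 84) whose profiles differ, which was known from earlier results of these data. The labels name no batch, and the blocks held 1, 6 and 9 of the accessions from other countries. Over the 200 genes the standardised profile of Canada replicate 4 had r = 0.915 with Canada replicate 3 and Shandong replicate 4 averaged. With Canada replicate 3 alone, its most like accession, r was 0.846. No other library or pair was compared in this way, so these values do not set Canada replicate 4 apart. Without this library all but 2 of the 200 genes were chosen again.

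The 200 genes were present everywhere but at very different levels. The highest accession was 32.3 to 50823 times the lowest, with a median of 256.96 times, whereas the median was 6.83 times in the other 14561 always expressed genes. A ratio of at least 100 was reached by 178 of the 200 genes (89%) and by 1.58% of the others, and a ratio of at least 1000 by 18 genes and by none of the others. The 90th percentile was at least 10 times the 10th in each of the 200 genes and in 2.37% of the others. These ratios follow largely from the choice by SD. Their median FPKM over the accessions ran from 4.15 to 813 with a middle value of 61.1, against 21.1 for the others. A median of at least 100 FPKM was found in 66 genes. Their lowest values were below those of the others, with a median of 2.56 against 7.06 FPKM. The rule favours such levels, since a large SD above a floor of 1 FPKM needs high values in some accessions.

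**Figure D1:**
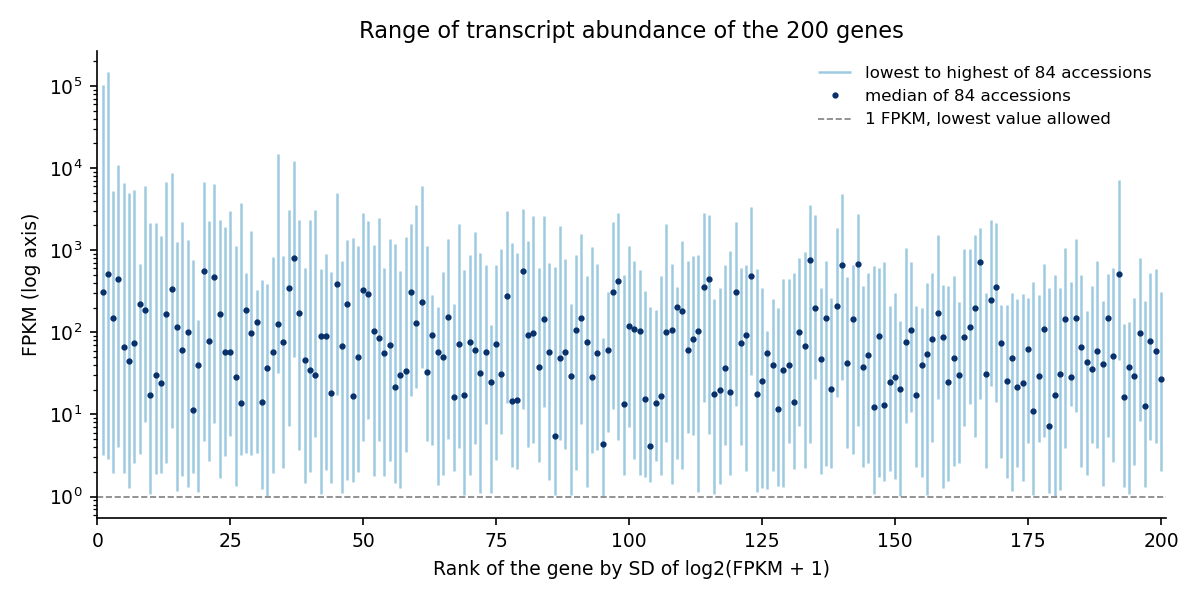
Lowest, median and highest FPKM over 84 accessions (vertical log axis) of each of the 200 genes, ordered by the SD of log2(FPKM + 1) (horizontal axis, rank 1 is the largest). Each light line runs from the lowest to the highest accession and each dot is the median; the first 2 genes reach 101356 and 147425 FPKM, and every line stays above 1 FPKM.

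The distributions were mostly broad rather than long-tailed. On the log2 scale the skewness had a median of -0.05, and 65.5% of the genes (against 60.2% of the others) lay between -0.5 and 0.5. In 24 genes (12%, against 1.13% of the others) no accession lay more than 2 SD from the mean, which is the form of a gene whose accessions fill the range or stand at both ends of it. The Shannon-Wiener index, which the study used for the diversity of transcript abundance, was lower than in the other genes when computed on FPKM (median 2.203 against 2.782) and close to theirs on the log2 scale (2.89 against 2.88). On FPKM it was lowest for Asa2G06559.1, at 0.733, where a few accessions hold the high values.

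Asa0G03404.1 and Asa7G03244.1 had the largest SDs, 4.78 and 4.69 log2 units. Asa0G03404.1 was at 3.18 FPKM in its lowest accession, 307 at the median and 101356 in its highest. Asa7G03244.1 was at 2.90, 519 and 147425 FPKM in the same order. Both were lowest in Hebei replicate 4 and highest in Canada replicate 2, and they rose and fell together with r = 0.986 over the 84 accessions. The ratio of Asa7G03244.1 to Asa0G03404.1 was between 0.305 and 7.26 with a median of 1.09, so a range of 31903 and 50823 times in the genes left a much narrower range of their ratio. Whether the genes are near copies between which reads were divided was not tested, and their separate levels are uncertain for that reason. Together they held a median of 0.071% of a library's summed FPKM, at least 1% in 33 accessions, at least 5% in 13 and 18.6% in Canada replicate 2. In that library the 200 genes held 23.8% of the summed FPKM, against a median of 4.09% over the accessions.

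These levels stood in no simple relation to the collection site. In Shandong Asa0G03404.1 ran from 4.61 to 45260 FPKM over 15 accessions. In Xinjiang, by contrast, its highest value over 9 accessions was 252.97 FPKM, and that of Asa7G03244.1 was 508 FPKM. The difference between these sites did not pass the threshold: the log2 change from Shandong was -2.81 ± 1.76 (SE) for Asa0G03404.1, with a limma adjusted p of 0.5683. The always expressed genes most like Asa0G03404.1 after Asa7G03244.1 were Asa7G07269.1 (r = 0.905) and Asa2G00718.1 (r = 0.891), of which the second is among the 200. Asa7G07269.1 is not, with a range of 2.56 to 109 FPKM. These likenesses are over 84 accessions that the labels place in 1 harvest, and they say nothing of shared function.

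**Figure D2:**
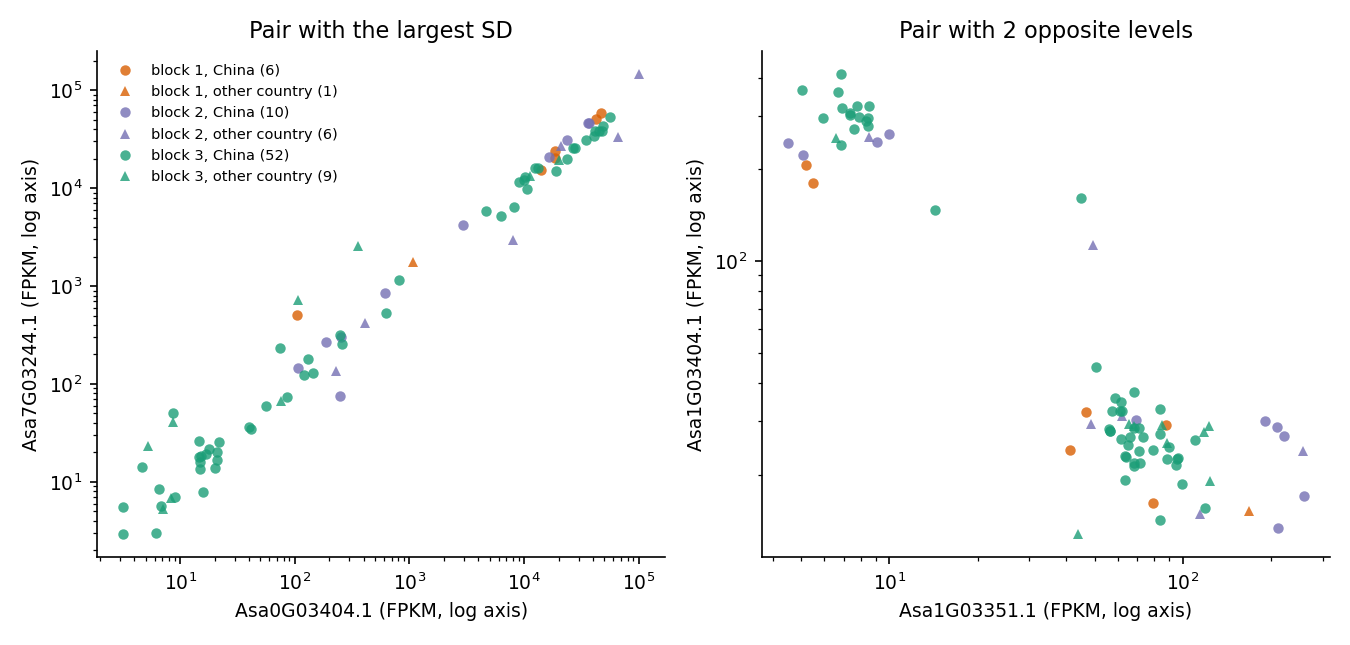
FPKM of gene pairs in the 84 accessions (both axes logarithmic), coloured by the block of deposited columns and shaped by country; the number of accessions is in the legend. Left, Asa0G03404.1 and Asa7G03244.1 lie along a line over more than 4 orders of magnitude. Right, Asa1G03351.1 and Asa1G03404.1 form a cloud at each of 2 corners, with Canada replicate 4 and Jiangsu replicate 2 between the corners.

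The next genes by SD varied less, by up to 3890 times. Asa5G05313.1 (SD 3.38) was at 1.96 FPKM in Canada replicate 5, 151 at the median and 5213 in Japan replicate 1. Asa3G04030.1 (SD 2.95) was at 4.06 FPKM in Henan replicate 4, 443 at the median and 10916.5 in Shandong replicate 7. Asa6G00868.1 (SD 2.91) was at 1.95 FPKM in Xinjiang replicate 8, 66.8 at the median and 6554 in Amrica replicate 1. Each of the 3 had a different accession at each end. Asa2G05915.1 (SD 2.89) ran from 1.28 FPKM in Japan replicate 1 over a median of 44.5 to 4975 in Xinjiang replicate 7. Asa5G05661.1 (SD 2.84) ran from 2.56 FPKM in Shandong replicate 5 over a median of 73.1 to 5419 in Amrica replicate 1. Japan replicate 1 was thus the highest accession for Asa5G05313.1 and the lowest for Asa2G05915.1. Asa2G05145.1 (SD 2.77) ran from 8.02 FPKM in Jilin replicate 1 over a median of 188 to 6092 in Xinjiang replicate 3. Asa6G05096.1 (SD 2.75) ran from 1.07 FPKM in Israel replicate 1 over a median of 17.1 to 2164 in Canada replicate 5, and its lowest values rest on few reads.

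A large SD did not need a high level. The highest medians belonged to Asa6G02013.1 (813 FPKM, range 50.6 to 12312), Asa3G02262.1 (767 FPKM, range 4.48 to 3577) and Asa0G00215.1 (715 FPKM, range 15.5 to 1879). The lowest belonged to Asa2G02568.1 (4.15 FPKM, range 1.504 to 204), Asa8G01347.1 (4.39 FPKM, range 1.01 to 85.9) and Asa2G06559.1 (5.46 FPKM, range 1.04 to 630). In its lowest accession, Jilin replicate 1, Asa3G02262.1 thus stood at the level of the scarce genes' medians. The end of the list was no break in the values: the last genes taken were Asa4G01762.1 (SD 1.5726), Asa6G04733.1 (1.5721) and Asa2G03513.1 (1.57155), and the first left out were Asa6G00771.1 (1.57151), Asa7G06920.1 (1.5682) and Asa3G04962.1 (1.5678).

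In 13 genes the accessions stood at 2 levels. Here a gene counted as such when the widest gap between neighbouring accessions, with at least 5 accessions on each side, was at least 1 log2 unit. This held for 6.5% of the 200 genes and for 0.151% of the other always expressed genes, a difference that a larger SD favours by itself. Asa8G04013.1 had the clearest split, with a gap of 3.42 log2 units. Its 33 low accessions lay between 3.27 and 11.4 FPKM with a median of 6.34, and its 51 high accessions between 132 and 669 FPKM with a median of 401. Thus no accession lay between the levels, whose medians were 63.3 times apart. Both levels were found at the same site: 5 of the 15 Shandong accessions were low and 10 high, and 6 of the 16 accessions from other countries were low. The low level was more frequent in the second column block, where 13 of 16 accessions were low, than in the first (3 of 7) and the third (17 of 61). The part of the blocks in this split was not tested.

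**Figure D3:**
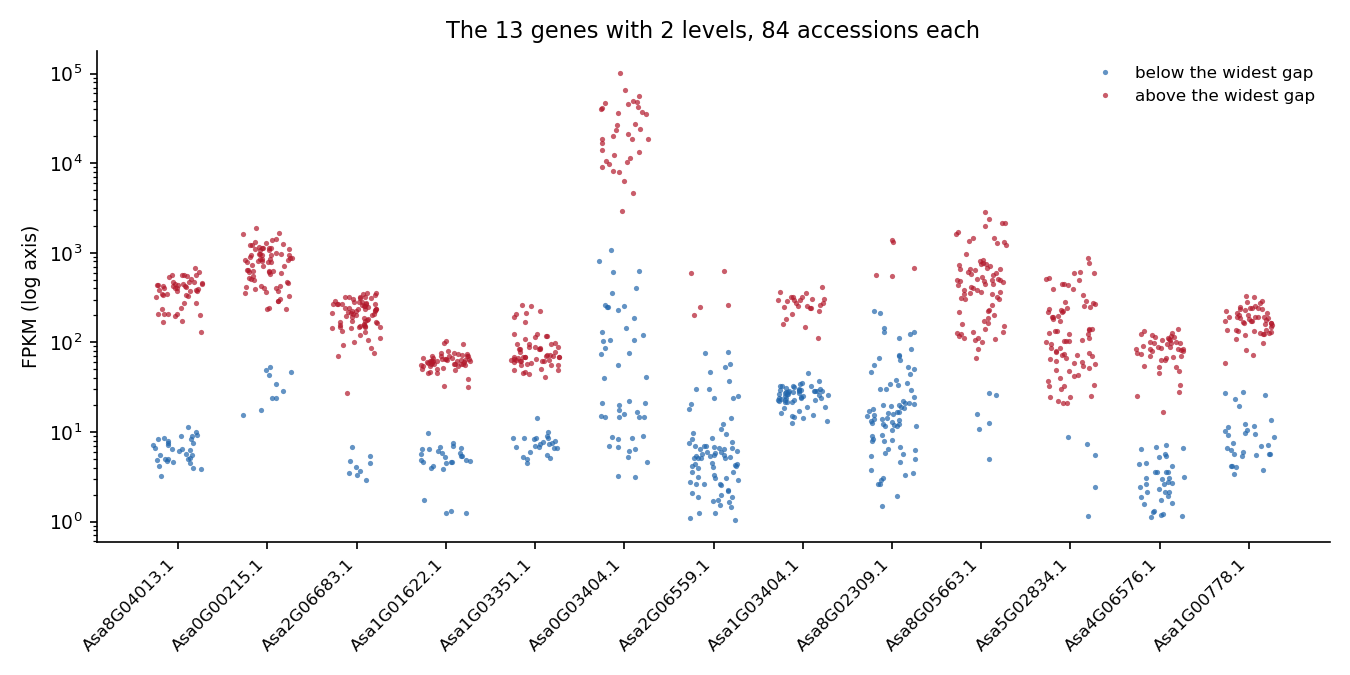
FPKM (log axis) of the 13 genes with 2 levels, 1 point for each of 84 accessions, spread sideways for legibility and coloured by side of the widest gap with at least 5 accessions on each side. Genes are ordered by gap from left (Asa8G04013.1, 3.42 log2 units) to right (Asa1G00778.1, 1.05); in Asa2G06559.1 and Asa8G02309.1 only 5 accessions are on the upper side.

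Several genes divided the accessions in nearly the same way. Asa1G00778.1 (31 low, 53 high) placed 82 of 84 accessions on the same side as Asa8G04013.1. Asa1G01622.1 (28 low, median 5.09 FPKM; 56 high, median 61.8 FPKM) placed 80 of 84 on the same side as Asa1G03351.1 (24 low, median 7.33 FPKM; 60 high, median 70.9 FPKM). The 5 genes Asa8G04013.1, Asa1G00778.1, Asa1G01622.1, Asa1G03351.1 and Asa4G06576.1 belonged to the same co-variation group described below. Set beside Asa1G03404.1, which ran the other way, 24 accessions were low in each of the 5 and high in Asa1G03404.1, 40 showed the reverse, and 20 were mixed. All 3 Guizhou accessions and 5 of 15 Shandong accessions were among the 24, as were 2 of the 16 from other countries. The other 10 Shandong accessions were among the 40, and no Shandong accession was mixed, whereas 10 of the 16 from other countries were. Accessions from China were mixed too: in Xinjiang 2 were among the 24, 3 among the 40 and 4 mixed. Column block 2 held 10 of the 20 mixed accessions and 1 of the 40, and 6 of its 16 accessions came from other countries. Whether the mixed pattern went with country or with the blocks was not tested.

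Asa1G03404.1 behaved as the mirror image of Asa1G03351.1. It was low, with a median of 26.3 FPKM, in 58 accessions and high, with a median of 275 FPKM, in 26. The 24 accessions in which Asa1G03351.1 was low were all high in Asa1G03404.1, and the genes stood on opposite sides in 82 of 84 accessions, with r = -0.93, the most negative of all 19900 pairs. They lie 53 rows apart in the table on chromosome 1. The accessions high in both were Canada replicate 4 (49.6 FPKM of Asa1G03351.1 and 113 of Asa1G03404.1) and Jiangsu replicate 2 (45.1 and 161.5 FPKM). These are the points between the corners in the plot of gene pairs. Canada replicate 4 is also the library compared above with an average of other accessions, and a link was not tested.

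Other splits set apart few accessions. Asa0G00215.1 was low in 10 accessions (15.5 to 52.7 FPKM) and high in 74 (234 to 1879 FPKM), and Asa2G06683.1 was low in 9 (2.90 to 6.75 FPKM) and high in 75 (27.0 to 356 FPKM). These genes agreed on 83 of 84 accessions, with Gansu replicate 3 as the exception. No Shandong accession was low in either gene, while 8 of the 10 and 7 of the 9 low accessions stood in the second column block. Asa2G06559.1 and Asa8G02309.1 were high in the same 5 accessions, Canada replicate 5, Gansu replicate 1, Qinghai replicate 1, Shandong replicate 8 and Sichuan replicate 2, all of which stood in the first column block of 7. Asa8G02309.1 was at 557 to 1404 FPKM in these and at 1.504 to 225 FPKM in the other 79. Asa5G02834.1 was low, at 1.15 to 8.88 FPKM, in Eygpt replicate 1, Greece replicate 1 and Xinjiang replicates 3, 6 and 8, and at 20.97 FPKM or more in the others. Asa8G05663.1 was low, at 4.93 to 27.0 FPKM, in 6 accessions, and in Asa0G03404.1 the 36 high accessions started at 2926 FPKM, above a wide spread of the 48 lower ones.

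The 200 genes fell into a small number of sets that rose and fell together. Over the 19900 pairs the median absolute r was 0.291, against 0.189 for pairs of the other always expressed genes. An r of at least 0.8 was reached by 5.16% of the pairs and by 0.0453% of the pairs of other genes, and 51 pairs reached 0.95. An average-linkage tree of the correlations, cut at an average r of 0.5, gave 10 groups of at least 5 genes that held 181 of the 200, and 19 genes were in none. The groups held 52, 31, 26, 15, 14, 12, 11, 10, 5 and 5 genes, each from several chromosomes, and are numbered in that order. A group score is the mean of the standardised log2 values of its genes. The 84 accessions behind each r share the harvest by the labels, and the libraries differ in depth and column block, so these values describe the table and are not tests.

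Group 1, with 52 genes and a mean r of 0.777, was highest in Jiangsu replicate 1, Jilin replicate 1, Shandong replicates 5, 6 and 7 and Heilongjiang replicate 1. Its lowest scores were those of Canada replicate 3, Henan replicate 4 and Shanxi replicate 3. Asa2G00293.1, the gene closest to the rest of the group, was at 1.297 FPKM in Canada replicate 3, 100.4 at the median and 1340 in Jilin replicate 1. Asa4G01751.1 ran from 7.32 over 86.9 to 1029 FPKM and Asa4G04846.1 from 1.96 over 57.3 to 823 FPKM, both with Jiangsu replicate 1 at the top. The accessions at the upper end came from 4 provinces and included 3 of 15 Shandong accessions. Centring the values within the column blocks left the mean r at 0.777, and the blocks held 11.7% of the variance of the score. Under each alternative tried the largest group held 51 to 56 genes, and at least 51 of the 52 genes of group 1 were in it.

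Group 3 (26 genes, mean r 0.598) and group 6 (12 genes, mean r 0.865) stood against group 1, with correlations of the scores of -0.63 and -0.41. Jilin replicate 1, Jiangsu replicate 1, Shandong replicate 6 and Heilongjiang replicate 1, which were at the upper end of group 1, were among the 6 lowest accessions of both. In group 3 Asa3G01720.1 was at 5.73 FPKM in Jilin replicate 1, 451 at the median and 2668 in Henan replicate 4. Asa1G02084.1 was at 1.75, 91.3 and 609 FPKM, and Asa8G05663.1, which also had 2 levels, at 4.93, 426 and 2870 FPKM, both lowest in Jilin replicate 1 too. The single accession of lowest value was thus the same for the leading genes of group 3. In group 6 Asa5G04675.1 ran from 2.56 over 168 to 6793 FPKM and Asa4G03690.1 from 4.71 over 84.7 to 2484 FPKM, and the score was highest in Xinjiang replicate 2, Gansu replicate 2 and Shanxi replicate 3. The column blocks held 5.38% and 2.015% of the variance of these scores.

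Groups 4 and 7 were opposites of each other. Group 4 (15 genes) held 5 of the genes with 2 levels and was led by Asa8G04013.1, and group 7 (11 genes) held Asa1G03404.1. Their scores had r = -0.93 over the 84 accessions, and all 10 pairs of genes with r of -0.85 or below, the pair on chromosome 1 among them, joined a gene of group 4 to a gene of group 7. In group 4 Asa6G00737.1 ran from 4.28 over 92.7 to 285 FPKM and Asa4G03740.1 from 3.37 over 189 to 527 FPKM. In group 7 Asa5G04563.1 ran from 6.10 over 61.5 to 309 FPKM. Shandong replicate 8, Guizhou replicate 2, Qinghai replicate 1 and Shandong replicate 15 had the lowest scores of group 4. The number of genes detected in a library moved with both: it had r = -0.65 with the score of group 4 and 0.76 with that of group 7, while relative depth had r of 0.12 and -0.15. The part of the number of detected genes in these scores was not tested.

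**Figure D4:**
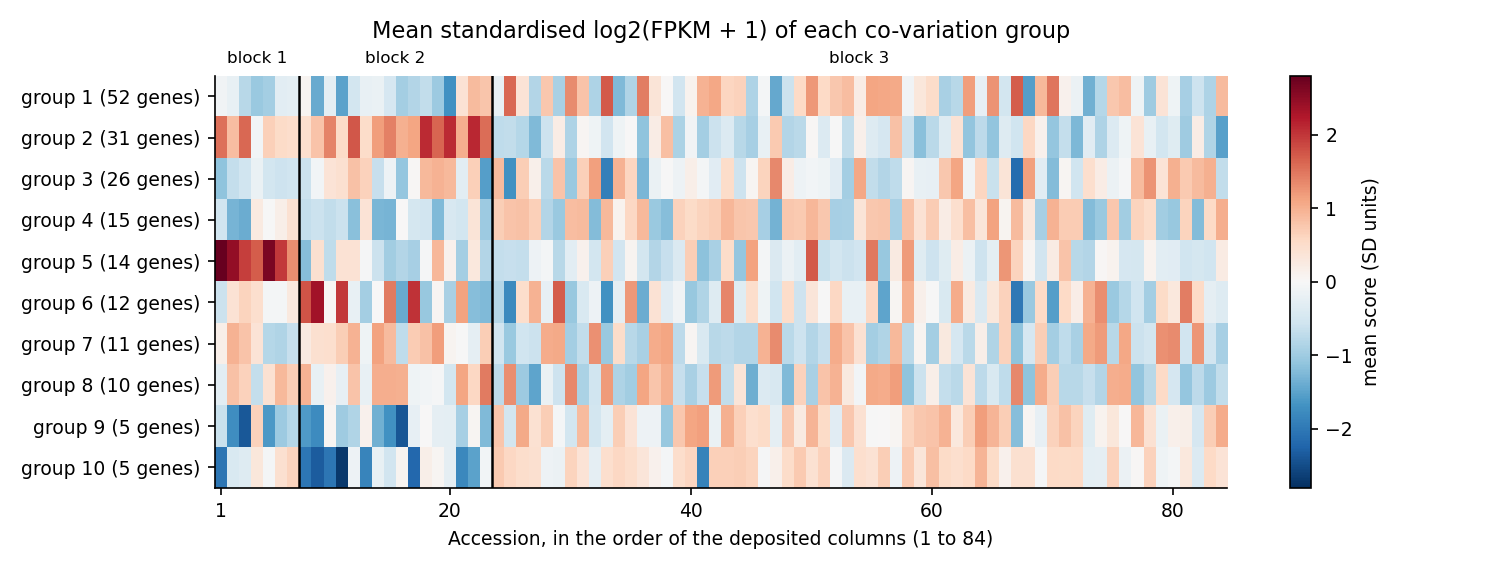
Score of each of the 10 co-variation groups (rows) in the 84 accessions (columns, in deposited order, with black lines between the 3 column blocks); red is above and blue below the mean over accessions, in SD units. Group 2 is mostly red in blocks 1 and 2, and group 5 is red in block 1. Group 9 is mostly blue in blocks 1 and 2, group 10 is mostly blue in block 2, and group 1 has red and blue accessions in block 3.

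Groups 2, 5, 9 and 10 followed the order of the deposited columns. The blocks held 63.4% of the variance of the group 2 score, 51.2% for group 5, 43.9% for group 9 and 43.0% for group 10. In group 2 (31 genes, mean r 0.799) Asa3G05028.1 had a median of 192 FPKM in the first block, 1045 in the second and 59.5 in the third. For Asa5G05661.1 these medians were 491, 2229 and 34.5 FPKM, and for Asa5G01586.1 402, 707 and 32.4 FPKM. The levels still overlapped, since Asa5G05661.1 reached 853 FPKM in the third block and fell to 71.8 in the first. In group 5 (14 genes) Asa7G02731.1 had 120 to 533 FPKM in the first block and medians of 11.8 and 11.7 FPKM in the others, where it reached 168 FPKM. With values centred within the blocks the mean r was 0.61 in place of 0.80 for group 2, 0.67 in place of 0.79 for group 5, 0.49 in place of 0.65 for group 9 and 0.47 in place of 0.62 for group 10, so these genes also varied together inside the blocks.

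Over all 200 genes the column blocks held a median of 13.7% of the variance of log2(FPKM + 1), against 11.04% in the other always expressed genes and 2.41% where 3 blocks of this size do not differ. The blocks were already known from these data to differ, so an excess over 2.41% is no test of them. In 53 genes (26.5%, against 14.3% of the others) they held at least 30%, with the maximum of 67.3% for Asa4G04295.1, which had medians of 50.8, 282 and 10.9 FPKM in the 3 blocks. What the blocks are is not given in the labels. A choice by the SD within the blocks took 160 of the same 200 genes.

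Group 8 (10 genes, mean r 0.682) held Asa0G03404.1, Asa7G03244.1 and Asa5G05313.1, the 3 genes of largest SD. Its score was highest in Japan replicate 1 and Jilin replicate 1 and lowest in Shandong replicates 3 and 9. It rose with group 1 (r = 0.53) and fell with group 3 (r = -0.64).

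Some of the closest pairs were neighbours in the table. Of the genes, 17 pairs of successive members stood within 5 rows of each other and 8 in adjacent rows. The run Asa8G05233.1 to Asa8G05236.1 had the highest r of all pairs, 0.995 between Asa8G05234.1 and Asa8G05235.1. Asa8G05234.1 ran from 14.03 over 356 to 2810 FPKM and Asa8G05235.1 from 11.6 over 310 to 2227 FPKM. Their ratio stayed between 0.666 and 1.36 while they varied by 200.3 and 192.0 times. Asa5G00798.1 and Asa5G00799.1 had r = 0.988, and Asa5G03893.1 and Asa5G03894.1 had r = 0.969. Whether such neighbours are near copies that share reads was not tested, and their separate levels are uncertain for that reason. Nearness did not always go with likeness: Asa5G04563.1 and Asa5G04565.1, 2 rows apart, had r = -0.04, and Asa8G04784.1 and Asa8G04789.1, 5 rows apart, had r = -0.54. Always expressed genes next to one of the 200 without being among them reached r of at least 0.5 in 14.04% of such pairs, against 21.1% of neighbouring pairs of the other genes. The first share leaves out the 8 pairs of members in adjacent rows, whose r was 0.905 to 0.995, so the shares are not like for like.

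The spread was also present inside Shandong, the largest site. Among its 15 accessions alone the SD had a median of 1.79 log2 units, against 0.42 in the other always expressed genes. All but 4 of the 200 genes had an SD of at least 1 there, and 914 of the 14561 others. The median SD was 1.72 among the accessions from China (0.47 in the other genes) and 1.82 among those from other countries (0.51). These accessions were part of the choice by SD, so high values inside them follow largely from the rule. Country held a median of 0.766% of the variance of the 200 genes (0.968% in the other genes, with 1.21% where the groups do not differ). The 6 sites held 11.2% (11.2% in the other genes, with 11.9% where sites do not differ). Collection site thus took no larger share of the variance in the most variable genes than in the rest.

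The ends of the distributions were shared unevenly among the accessions. Jiangsu replicate 1 was the highest accession for 29 of the 200 genes and the lowest for 4. Canada replicate 3 was highest for 12 and lowest for 16, and Jilin replicate 1 highest for 10 and lowest for 18. Equal shares would give each accession 2.38 genes at each end. The counts of single accessions are not set against the other genes here, so they are not shown to be particular to the 200. Genes that vary together tend to share their ends, so these counts are not separate from the co-variation groups. Xinjiang replicate 2 and Canada replicate 5 were each highest for 14 genes, Amrica replicate 1 was highest for 11, and Henan replicate 4 was lowest for 13. The 10 accessions with the most ends held the highest value of 107 genes and the lowest of 82, while 17 accessions were at neither end of any gene. Accessions from other countries, 19.05% of all, held 32% of the highest and 31% of the lowest values, and in the other always expressed genes 23.7% and 36.9%. The second column block, also with 19.05% of the accessions, held 33% of the highest and 32.5% of the lowest values, and 6 of its 16 accessions came from other countries.

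Among the 6 best sampled sites, Canada had the lowest mean log2 value for 87 of the 200 genes (43.5%) and the highest for 45. In the other genes it was lowest for 47.8%, close to the share in the 200. Henan had the highest mean for 60 genes (30%, against 19.8% of the other genes), Hebei for 56 (28%, against 21.3%) and Shandong for 3 (1.5%, against 6.18%). Means over 4 or 5 accessions vary more than a mean over 15, and no test was made on these counts. By single accessions, Jilin replicate 1 and Jiangsu replicate 1 were the most alike pair over the 200 genes (r = 0.955), followed by Shandong replicates 6 and 7 (0.933) and Shandong replicate 5 with Heilongjiang replicate 1 (0.930). Canada replicate 2 was least like any other accession, with at most r = 0.513.

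The comparison of the 16 accessions from other countries with the 68 from China asks whether abundance went with the place of collection. Of the 200 genes 2 passed the threshold (limma, Benjamini-Hochberg adjusted p of at most 0.05 over 36007 genes), both lower in the other countries and none higher. Over all tested genes 2.45% were called lower and 1.23% higher, against 1% of the 200 in all. The 200 were chosen by their SD over the same accessions, which shapes their shares here and in the site comparisons. Setting these shares beside those of the table is therefore a description and no test of the 200 as a set. An unadjusted p under 0.05 was found for 43 of the 200 (21.5%) and for 18.1% of the table, which is near that share. Of the 200 log2 changes, 101 were above 0.

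Asa2G05746.1 had a lowest, median and highest value of 2.79, 18.3 and 186 FPKM in the other countries (54.3 ± 63.2, SD, n = 16) and of 5.04, 90.9 and 663 FPKM in China (149 ± 149, SD, n = 68). The groups overlapped widely, although 12 of the 16 lay below the median of China. The log2 change was -1.70 ± 0.47 (SE), with a limma adjusted p of 0.0264. In the third column block the medians were 56.8 FPKM in 9 accessions of other countries and 162 FPKM in 52 of China, and in the first 2 blocks 13.2 (n = 7) and 31.04 FPKM (n = 16). With the block as a covariate the change was -1.20 and no longer passed (limma adjusted p = 0.0934). The third block alone and the first 2 alone gave limma adjusted p of 0.144 and 0.624.

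Asa6G03220.1, a gene of group 6, had a lowest, median and highest value of 1.21, 5.41 and 45.2 FPKM in the other countries (10.1 ± 12.4, SD, n = 16) and of 1.04, 22.3 and 575 FPKM in China (55.0 ± 96.9, SD, n = 68). Again the ranges overlapped, with 14 of the 16 below the median of China. The log2 change was -1.69 ± 0.48 (SE), with a limma adjusted p of 0.0297, and with the block as a covariate -1.90 (adjusted p = 0.0183). In the third block alone it was -1.15 (adjusted p = 0.251) and in the first 2 blocks alone -2.92 (adjusted p = 0.361). Neither gene passed a rank-sum test (adjusted p = 0.0999 for Asa2G05746.1 and 0.0824 for Asa6G03220.1), which called none of the 200 and 126 genes (0.35%) of the whole table. At an unadjusted p under 0.05 the rank-sum test had 37 of the 200 (18.5%) and 15.8% of the table. Each call was lost when 1 of 5 accessions was left out. Both were lost without Canada replicate 3, Eygpt replicate 1, Greece replicate 1 or Greece replicate 2, Asa2G05746.1 also without Japan replicate 1 (adjusted p = 0.0504) and Asa6G03220.1 without Canada replicate 4 (adjusted p = 0.0509).

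Across the 6 sites an F test called none of the 200 genes (limma, 0.0442% of 33913 genes called), while 12 (6%) had an unadjusted p under 0.05, against 9.08% of the table. Xinjiang, Shanxi, Henan and Hebei against Shandong gave no call among the 200, and the share called over the table was 0% in each. With an unadjusted p under 0.05 there were 3, 1, 1 and 3 of the 200 (1.5%, 0.5%, 0.5% and 1.5%), against 11%, 2.46%, 0.537% and 1.17% of the table. Canada against Shandong called 4 of the 200 higher and none lower, where 0.345% of the table was called higher and 1.01% lower. The median log2 change over all tested genes was -0.17 in this comparison and -0.39 over the 200. Median-ratio scaling took the first to -0.03 and the second to -0.19. It also turned the split over the table, with 0.815% called higher (276 genes) and 0.236% lower (80 genes), while the count of 4 among the 200 was the same.

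The 4 genes differed in how far Canada stood from Shandong. Asa8G05236.1, of the run on chromosome 8, was at 1475, 1408, 2229, 1965 and 899 FPKM in Canada replicates 5, 2, 3, 4 and 1, and between 20.98 and 1055 FPKM in Shandong with a median of 119.03. Only Canada replicate 1 lay within the range of Shandong. In the fit of the sites it stood 3.17 ± 0.78 (SE) log2 units above Shandong (limma adjusted p = 0.0329). Asa5G00687.1 was at 1619, 2879, 5474, 3847 and 383 FPKM in the same order and between 40.5 and 2424 FPKM in Shandong with a median of 137. Here 3 of the 5 lay above every Shandong accession, and the log2 change was 3.38 ± 0.84 (SE, adjusted p = 0.0345).

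Asa0G02746.1 was at 950, 325, 2768, 3114 and 10.4 FPKM in Canada replicates 5, 2, 3, 4 and 1, and between 8.37 and 321 FPKM in Shandong with a median of 27.8. Thus Canada replicate 1 lay below the Shandong median while the other 4 lay above all Shandong accessions. In the fit of the sites it stood 3.77 ± 0.95 (SE) log2 units above Shandong (limma adjusted p = 0.0360). Asa3G01417.1 was at 135, 22.46, 432, 285 and 53.2 FPKM in the same order, and between 1.31 and 56.7 FPKM in Shandong with a median of 4.04. All 5 lay above the Shandong median and 3 above the Shandong range, with a log2 change of 3.71 ± 0.99 (SE, adjusted p = 0.0472).

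The levels of the 4 genes also moved with the column blocks. Canada had 4 accessions in the first 2 blocks and 1 in the third, and Shandong had 3 and 12. In the first 2 blocks Asa5G00687.1 was at 1619 to 5474 FPKM in Canada and at 1713 to 2424 FPKM in the 3 Shandong accessions, and Asa3G01417.1 at 22.46 to 432 and 30.04 to 47.1 FPKM, so the sites overlapped. Asa8G05236.1 was at 1408 to 2229 FPKM against 868 to 1055 and Asa0G02746.1 at 325 to 3114 against 139.2 to 321 FPKM, without overlap. In the third block Canada replicate 1 was above all 12 Shandong accessions in Asa8G05236.1 (899 FPKM against 20.98 to 413) and in Asa5G00687.1 (383 against 40.5 to 308). In Asa3G01417.1 it was at 53.2 FPKM, near the upper end of the 12 (1.31 to 56.7, median 4.02), and in Asa0G02746.1 at 10.4 FPKM, near the lower end (8.37 to 147, median 21.2). With the block as a covariate none of the 200 genes and 0.127% of the table (43 genes) passed. At an unadjusted p under 0.05 there were then 18 of the 200 (9%) and 14.5% of the table, and the 4 had log2 changes of 1.67 to 2.23 and limma adjusted p of 0.221 to 0.294. None of the 4 passed without Canada replicate 3, 4 or 5, where 0.393%, 1.77% and 0.328% of the table were called, but their log2 changes stayed at 3.02 to 3.66. Without Canada replicate 1, the accession of the third block, 28 of the 200 (14%) and 3.65% of the table were called. Without Canada replicate 2 there were 5 of the 200 (2.5%) and 2.47% of the table.

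**Figure D5:**
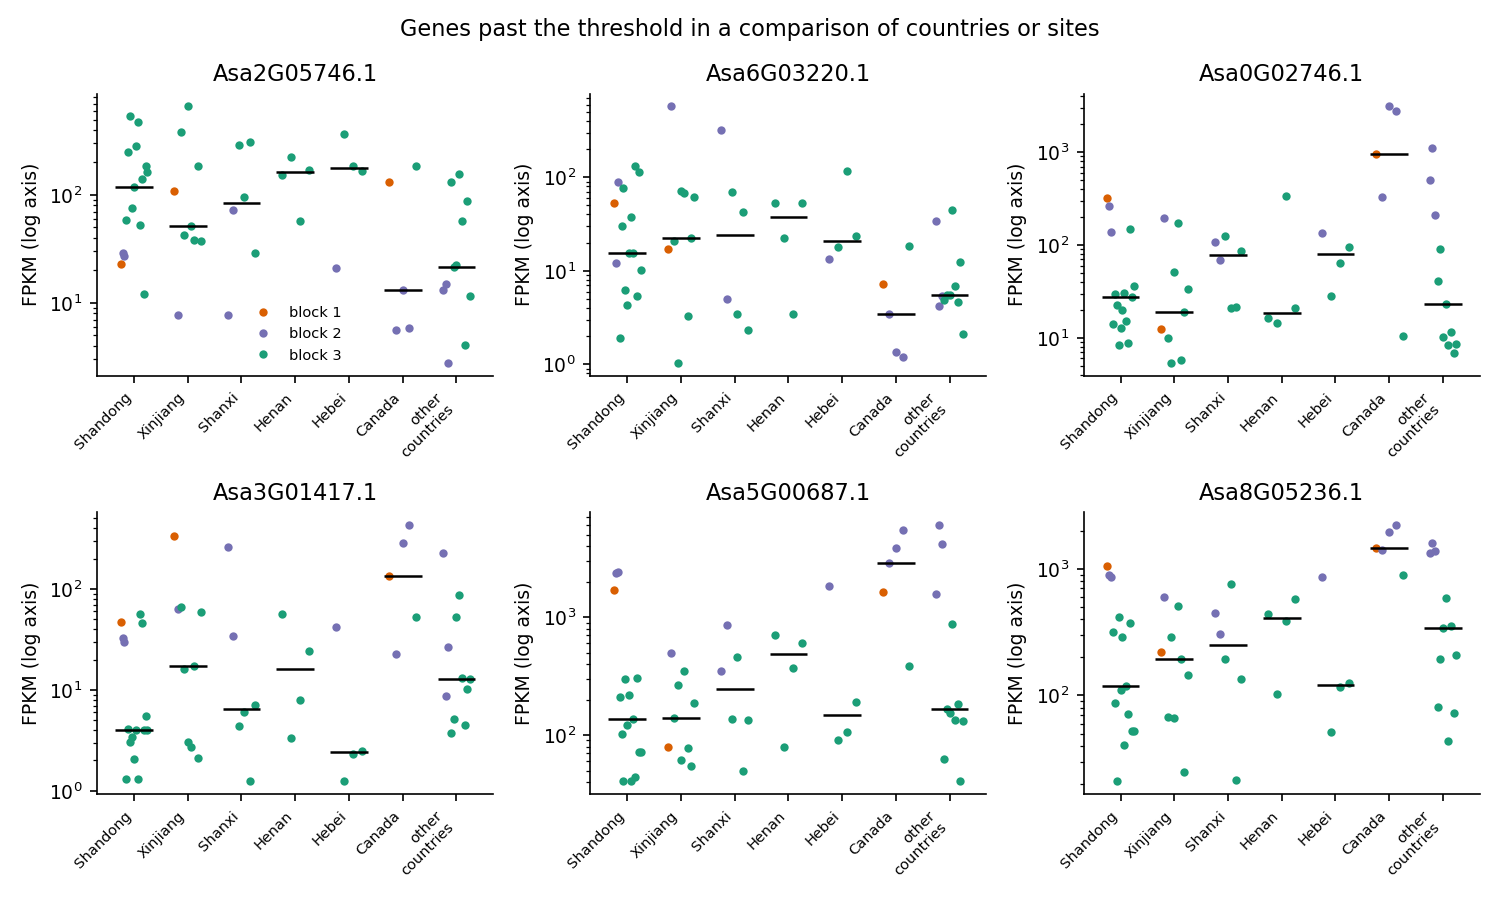
FPKM (log axis) of the 6 genes past the threshold in a comparison, by collection site, with 1 point for each accession coloured by column block and a black line at the median; "other countries" holds the 11 accessions outside China that are not from Canada. In the lower 3 panels and the upper right one the 3 highest Canada values are in blocks 1 and 2, where the Shandong accessions are also mostly higher than in block 3.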

How the data were processed

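Total RNA of enlarging bulbs was sequenced, with 1 library for each of 84 accessions. Per the study's methods and the submitters' processing notes, reads were aligned to the garlic reference assembly with HISAT2 (version 2.2.1.0), and the authors deposited FPKM values for 57561 genes in 1 table. Counts, a gene annotation and sequences were not used here. All 84 columns matched a sample by title.

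The members and alternatives were chosen with earlier results of these data known. Each of the 200 genes met the filter of every comparison, because all reach 1 FPKM in every accession. Values were analysed as log2(FPKM + 1), so folds of low values are understated. Whole reads were recovered for the 200 genes from the steps of the FPKM values (tolerance 0.02 reads). Comparisons used limma (version 3.58.1, R 4.3.3) with a trend over genes at 1 FPKM or more in at least 4 fitted accessions and Benjamini-Hochberg adjustment over all of these. The fits were other countries against China (84 accessions, 36007 genes) and 6 sites together (43 accessions, 33913 genes). The fit was tested on simulated data. Correlations, the tree and the gaps used Python 3.11.15 with scipy 1.17.1.

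Genes were named by rule: the 10 of largest SD, the 3 closest to the rest in each of the 4 largest co-variation groups, the 5 with the widest gap, up to 3 called in each direction of a comparison, 3 on either side of the SD threshold, 3 of highest and lowest median and 3 most like the first. Others named were chosen after their values were seen. Alternatives were another pseudocount (0.1), no filter, median-ratio scaling, the column block, a rank-sum test, other measures of spread and likeness, and leaving out accessions. Gene lists by function were not used, since no names were given.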

Additional observations from a re-analysis of the deposited data

Results flagged for a closer look

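Among the 6 genes past the threshold in a comparison, values were examined in the 5 sites of 4 to 9 accessions, 30 groups in all. In 2 of these a single accession stood apart by Dixon's ratio on the log2 scale, and chance alone gives about 1 in 20. Asa0G02746.1 was at 336 FPKM in Henan replicate 4, against 14.52 to 20.9 FPKM in the other 3 Henan accessions. Asa3G01417.1 was at 41.9 FPKM in Hebei replicate 1, against 1.24 to 2.48 FPKM in the other 3 Hebei accessions.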

How the results depend on the processing

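Between 69.5% and 93% of the 200 genes were chosen again under another pseudocount, scaling or measure of spread, and the largest co-variation group held 51 to 56. The count of genes with 2 levels was 86 with a gap of 0.5 log2 units and 24 with at least 3 accessions on a side, in place of 13. For other countries against China the main fit gave 2 calls (1% of the 200, against 3.67% of the table). With the column block as a covariate there were 4, 1 higher and 3 lower (2%, against 3.67% of the table). The rank-sum test gave 0 (0.35% of the table). By a choice made after seeing the data, the first 2 blocks alone gave 0 (0% of the table). The third block alone gave 2 (1%, against 7.8% of the table). Leaving out each accession gave 0 to 8 calls, while the whole table had 533 (without Greece replicate 2) to 2080 (without Thailand replicate 1) in place of 1323. The count was 0 without Canada replicate 3, Eygpt replicate 1 or either Greece accession, where 1.48% to 2.35% of the table was called. Without Canada replicate 4 it was 1 (3.45% of the table). It was 8 without Canada replicate 1 (5.06% of the table), 7 without Thailand replicate 1 (5.78%) and 6 without Australia replicate 1 (5.38%). It was 4 without Canada replicate 5, Ukraine replicate 1, Turkey replicate 1, Shandong replicate 1, Shanxi replicate 2, Henan replicate 4 or Xinjiang replicates 3 or 6. In these fits 2.92% to 5.44% of the table was called. For Canada against Shandong there were 0 calls in place of 4 with the block (0.127% of the table in place of 1.35%). When a Canada accession was left out there were 0 to 28 calls, with 0.328% to 3.65% of the table called. The F test over 6 sites gave 0 to 1 without a Canada accession, with 0.00296% to 0.0855% of the table called. The other site comparisons kept 0 calls under the alternatives run, and none of the 6 called genes changed direction in a limma fit. The cause of these changes was not tested. No paired analysis was possible because the replicate numbers follow the order of the accessions and pair nothing. Depth limits the lowest values, since 33 genes rest on under 10 reads in some library.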
